A study of Drosophila melanogaster with 2 samples.

Results

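The genes described here encode the fibroblast growth factor (FGF) ligands and receptors of Drosophila melanogaster and the adaptor protein below the receptors. They are the ligand genes branchless (bnl), thisbe (ths) and pyramus (pyr), the receptor genes breathless (btl) and heartless (htl), and the adaptor gene stumps, 6 of 13945 protein-coding genes. They were chosen by name from a pathway list whose promoter and distal peaks had already been counted in these data, so their counts are a description with no test. A region was given to one of them when its summit lay within 1 kb of any of its transcription start sites (TSSs). A summit over 1 kb from every TSS in the genome, called distal, was given to the gene with the nearest protein-coding TSS. These rules gave the genes 199 of 139318 candidate regions and 3 of 2877 peaks on the main chromosome arms.

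The data are chromatin immunoprecipitation sequencing (ChIP-seq) of whole embryos 0 to 18 h old from transgenic flies with a fusion of gooseberry (gsb) to eGFP. The label of the strain is gsb-GFP, and the insertion is labelled as targeting gsb. The precipitating antibody was against GFP in one label, while another names gsb as its target. There was 1 group of 2 biological replicates and no control library among the data used here, so conditions were not compared and each value can be read only against the rest of the same libraries. Each library mixes all cells and stages of the embryo, so strong enrichment in few cells and weak enrichment in many cannot be told apart. The authors ranked candidate regions in each replicate and in the pair, and kept those under a limit of the irreproducible discovery rate (IDR). The IDR is low where a region ranks consistently high in repeated sets of reads. Regions of the pair's joint list that passed are called peaks, and all of those on the main arms had an IDR of at most 0.01. Signal is the authors' value per region from their peak caller, with no scale stated, and it was set against other regions of the same list only. How many reads lie behind each library is not known from such lists.

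FGFs are secreted proteins that activate receptor tyrosine kinases and, through Ras and the MAP kinase cascade, change gene expression and cell movement in the receiving cells. In the fly embryo, Bnl activates Btl in tracheal cells and guides the outgrowth of tracheal branches. Ths and Pyr activate Htl in the mesoderm, where they act in the spreading of mesoderm cells and in the formation of heart and muscle precursors. Stumps, also called Dof, is needed in the same cells as the receptors and links them to the Ras pathway. Gooseberry is a Pax protein that binds DNA through its paired domain and its homeodomain and is known for its role in segment polarity and in the nerve cord.

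Both peaks of bnl that passed are printed because they are the only sequences outside the ths locus where the fusion protein met the threshold at an FGF gene. The third sequence is the region of a receptor gene that came closest to passing, downstream of htl. Each reads 5′ to 3′ on the strand of its gene, from the RefSeq copy of Release 6 (dm6). Capitals mark matches, in either orientation, to the GAGA repeat GAGAGAG (which reads CTCTCTC here), the E-box CAGCTG, the 6-mer ACAGTG and the ETS factor core CCGGAA. The bnl promoter sequence is chr3R:19836818-19837117, the bnl intron sequence is chr3R:19831002-19831301 and the htl sequence is chr3R:18042613-18042813, all on the minus strand.
bnl promoter peak: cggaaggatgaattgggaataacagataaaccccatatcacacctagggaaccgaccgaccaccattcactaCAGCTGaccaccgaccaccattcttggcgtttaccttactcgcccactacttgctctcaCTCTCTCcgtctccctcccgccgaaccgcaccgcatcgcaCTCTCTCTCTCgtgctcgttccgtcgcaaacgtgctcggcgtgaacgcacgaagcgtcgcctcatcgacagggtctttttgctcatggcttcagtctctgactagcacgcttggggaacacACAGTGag
bnl intron peak: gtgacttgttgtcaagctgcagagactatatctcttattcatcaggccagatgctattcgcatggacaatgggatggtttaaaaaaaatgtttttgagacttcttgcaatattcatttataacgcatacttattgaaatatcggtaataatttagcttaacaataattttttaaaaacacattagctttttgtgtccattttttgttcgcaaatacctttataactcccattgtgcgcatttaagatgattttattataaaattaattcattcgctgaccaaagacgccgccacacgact
htl strongest region: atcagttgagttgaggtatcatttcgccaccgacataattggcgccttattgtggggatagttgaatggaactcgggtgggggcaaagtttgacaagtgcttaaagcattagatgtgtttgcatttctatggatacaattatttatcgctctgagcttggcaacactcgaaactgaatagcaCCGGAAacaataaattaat
The promoter sequence ends at the base before the bnl TSS and is 56.0% G and C, while the intron sequence is 32.7% G and C and held none of the 12 motifs searched. The htl sequence is 40.8% G and C and held 1 CCGGAA.

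The gene bnl (FBgn0014135, 3R, 19794073 to 19836817, minus strand) had 2 peaks, 1 at its promoter and 1 in its first intron. The promoter peak (chr3R:19836756-19837119) had its summit 121 bp upstream of the single annotated TSS, in intergenic sequence. Its signal in the joint list was 115, with an IDR of 0.00152, against a median of 112 over all 2877 peaks. In the replicates' own ranked lists the signal was 70.7 in replicate 1 (IDR 0.00389) and 52.5 in replicate 2 (IDR 0.197). The region passed in replicate 1 and not in replicate 2. The intron peak (chr3R:19830969-19831332) lay 5666 bp downstream of the TSS in an intron of 7219 bp that is the first of all 3 annotated transcripts. Its signal was 107 with an IDR of 0.00199, and the replicate values were 51.0 (IDR 0.0109) and 54.0 (IDR 0.0142). Both replicate values were just outside the threshold, so the peak was in neither replicate list. Both bnl peaks were also in the authors' conservative joint list.

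The ths gene (FBgn0033652, 2R, 11756817 to 11814424, plus strand) held the strongest peak of the 6 genes. Its summit lay 1510 bp downstream of an internal TSS at 11790366, in the first intron of the shorter transcript and the second intron of the longer one. The peak (2R, 11791771 to 11791909) had a signal of 288 and an IDR of 5.31e-05, and it ranked 302 of 2888 peaks by signal. Its signal was 140 in replicate 1 (IDR 3.96e-05) and 153 in replicate 2 (IDR 5.02e-05), and it passed in both. The peak was narrow, at 139 bp against a median width of 364 bp over all peaks. Only 126 of 2877 peaks (4.38%) were as narrow. In the replicates it spanned 86 and 103 bp, with the summit 2 and 21 bp from the nearer end, against median peak widths of 340 and 336 bp. Within 1 kb of that TSS, the strongest region (2R, 11790590 to 11790953, in the 5′ UTR) had a signal of 61.9 and did not pass.

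Other candidate regions lay near the internal ths TSS. Of the 6 in the 5 kb after that TSS, 3 had an IDR of at most 0.05, counting the peak, against 4.09% of all candidate regions. The other 2 lay 2422 and 4457 bp downstream, in introns, with signals of 67.5 (IDR 0.0296) and 64.1 (IDR 0.0405). The nearer one had 21.9 in replicate 1 (IDR 0.834) and 47.0 in replicate 2 (IDR 0.0194). The farther one had 23.9 (IDR 0.491) and 38.5 (IDR 0.610). Both regions had the higher signal in replicate 2, and neither passed in either replicate. The window starts at the TSS nearest to the strongest peak of the 6 genes, so its count describes a chosen place and was not tested. A further peak lay in a ths intron, nearer the 3′ end (2R, 11809314 to 11809677), with a signal of 126 and values of 54.6 and 72.5 in the replicates, which both passed. The rule gave it to CG13192, whose TSS is 15849 bp away, since the nearest ths TSS is 19130 bp away.

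The third ligand gene, pyr (FBgn0033649, 2R, 11712263 to 11726345, plus strand), had no peak in any list. It had 22 candidate regions, none within 1 kb of its TSS in the joint list or in replicate 1. In replicate 2 there were 2 regions at the TSS, the stronger with a signal of 30.5. The highest signal in the joint list was 55.7, in the second intron 9695 bp from the TSS (IDR 0.194, with 34.5 and 29.1 in the replicates). The lowest IDR was 0.0464, in a region 4393 bp from the TSS with a signal of 54.4. That region matched none in replicate 1 and had 32.3 in replicate 2.

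**Figure D1:**
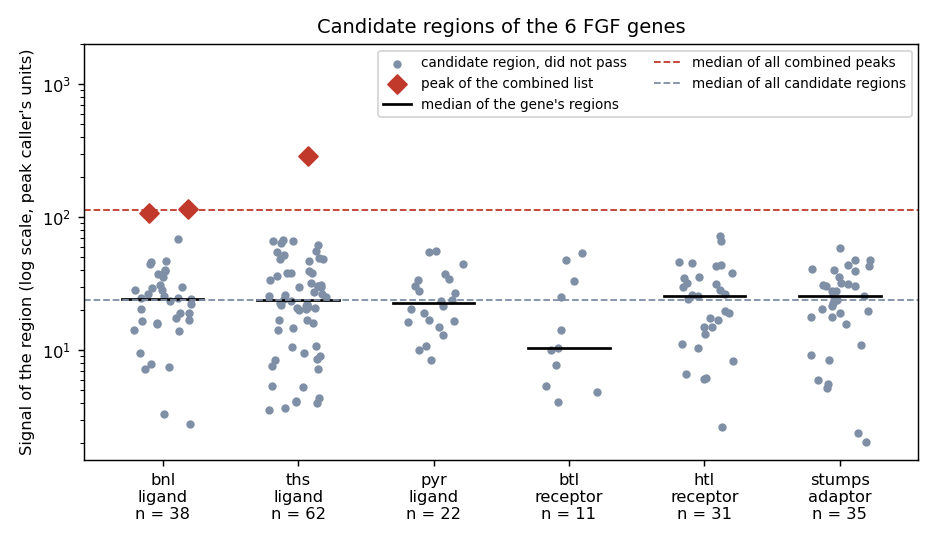
Signal of every candidate region of the FGF genes in the joint list (log scale, peak caller's units), 1 point per region in a column per gene, with the gene's median as a bar. The ths peak at 288 stands above all other regions, the bnl peaks at 115 and 107 lie on either side of the median of all peaks, and the medians of bnl, ths, pyr, htl and stumps lie near that of all candidate regions.

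Neither receptor gene had a peak. Of the 31 candidate regions of htl (FBgn0010389, 3R, 18045216 to 18052984, minus strand), the strongest was the printed region past the 3′ end, 6653 bp downstream of the nearest TSS. Its signal was 71.9 with an IDR of 0.0280, from 44.6 in replicate 1 (IDR 0.0202) and 22.9 in replicate 2 (IDR 0.492). At the promoter, the strongest region lay 416 bp upstream of the inner htl TSS with a signal of 66.0 (IDR 0.626). It had 37.3 in replicate 1 (IDR 0.0183) and 33.1 in replicate 2 (IDR 0.742). Of the 11 candidate regions of btl (FBgn0285896, 3L, 14075772 to 14083229, plus strand), the strongest lay 1598 bp upstream, with a signal of 53.9 (IDR 0.151). It had 25.6 in replicate 1 and 24.5 in replicate 2. The strongest within 1 kb of a btl TSS had a signal of 48.0. Both of these regions lay outside the btl gene body, in a coding exon of another gene. The median signal of the btl regions was 10.4, against 24.0 over all candidate regions, and 4 of the 11 lay above that median.

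The adaptor gene stumps (FBgn0020299, 3R, 14577217 to 14608079, plus strand) has 5 annotated TSSs and had 35 candidate regions, of which none passed. The strongest, in the second intron of the longest transcript, had a signal of 58.8 (IDR 0.135) and 29.8 in each replicate. At the promoters the highest signal was 47.4, from a region at the third TSS. A peak with a signal of 116 that passed in both replicates (48.0 and 68.5) lay 1394 bp past the 3′ end of stumps, but its summit is 169 bp from the TSS of CG14853, and it was counted there.

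**Figure D2:**
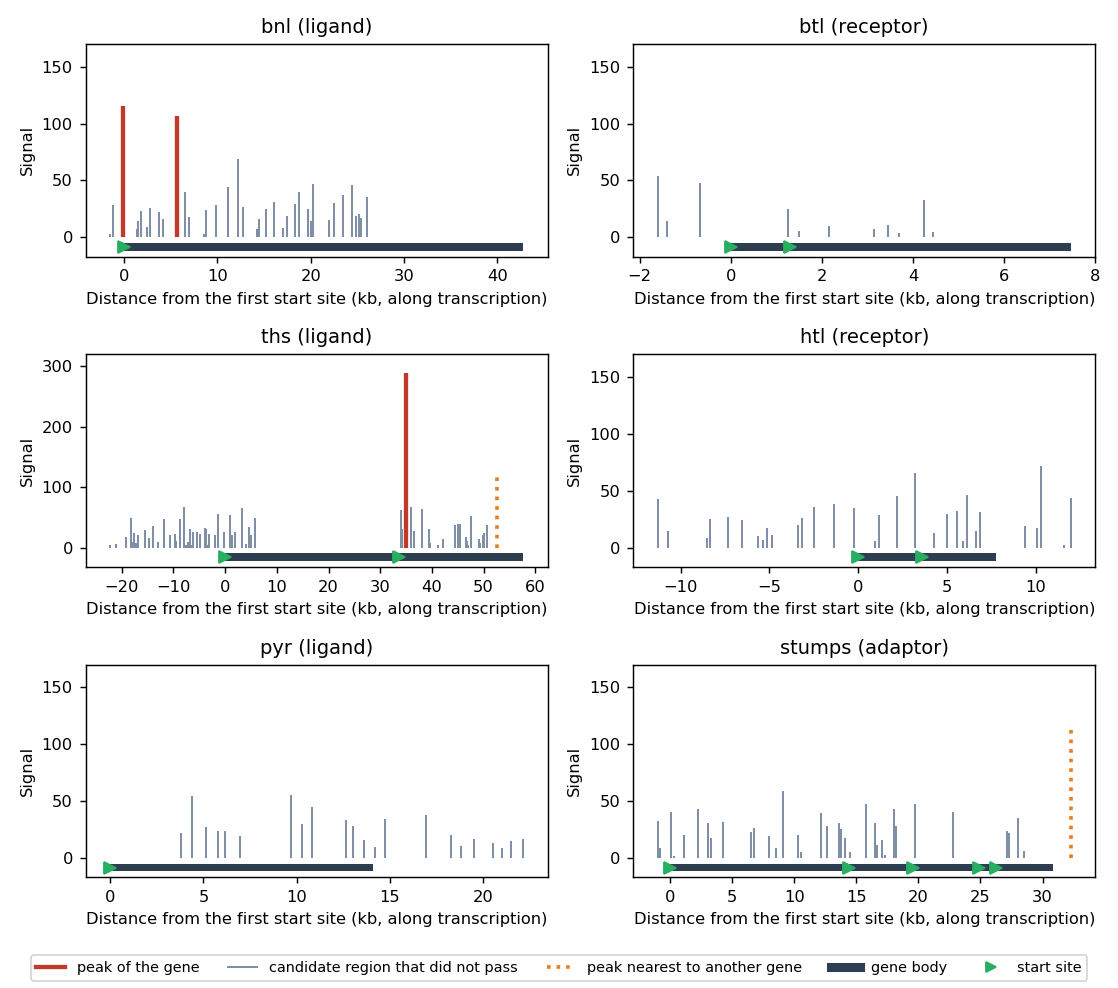
Signal of candidate regions (vertical axis, peak caller's units) against distance in kb from the first TSS along the direction of transcription, 1 panel per gene, with the gene body as a bar and TSSs as triangles. Red lines mark the peaks of bnl (115 and 107) and ths (288), and dotted lines mark peaks within or just beyond ths (126) and stumps (116) that lie nearest to another gene; gaps inside bnl and ths are stretches nearest to the TSS of another gene.

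Counted over the genes, 1 of 6 had a promoter peak (bnl, 16.7%), against 13.8% of all protein-coding genes. In the replicate 1 list this was again 1 of 6, against 9.89% of genes, and in the replicate 2 list it was 0 of 6, against 9.46%. Distal peaks lay at 2 of 6 genes (bnl and ths), against 5.74% of all genes. In the list of either replicate alone they lay at 1 of 6 (ths). Those lists are shorter (1864 and 1701 peaks, against 2877), and their distal share over all genes is not given here. In the joint list, 2 of 6 genes had a peak of either kind, against 18.1%. These gene shares take no account of gene length or of the number of candidate regions. Counted per region, the shares were lower than or close to those of the genome. Of the 177 distal candidate regions of the FGF genes, 2 passed (1.13%, exact Clopper-Pearson 95% interval 0.137 to 4.02), against 1.16% of all distal candidate regions. Of the 22 within 1 kb of a TSS, 1 passed, against 4.44%, and over both classes 3 of 199 passed (1.51%), against 2.07%. At a looser IDR of 0.05 the count was 7 of 199 (3.52%), against 4.09% of all candidate regions. The interval covers counting error only, and regions of 1 gene share their surroundings.

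The level of the candidate regions also lay near that of the genome. Their median signal was 23.9, against 24.0 over all candidate regions, and 99 of 199 (49.7%) lay above the median of all. The distal ones had a median of 23.5, against 23.2 for all distal regions, and those within 1 kb of a TSS had 25.4, against 26.5. By gene the medians were 24.3 at bnl, 23.8 at ths, 22.6 at pyr, 10.4 at btl, 25.5 at htl and 25.7 at stumps. The strongest region within 1 kb of a TSS ordered the genes as bnl (115), htl (66.0), ths (61.9), btl (48.0) and stumps (47.4), with none for pyr. Their median was 61.9 over the 5 genes with such a region, against 46.0 over 12529 genes. A strongest value per gene can rise with its number of TSSs (5 at stumps, 1 at bnl), which was not accounted for. In the replicates' own lists, htl and ths both had 37.3 in replicate 1, while in replicate 2 htl had 33.1 and ths 24.0. The genes btl and stumps had 32.1 and 28.5 in replicate 1 and 20.3 each in replicate 2. Neither pair thus differed in both replicates.

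Regions were also sorted by position. Those within 1 kb of a TSS formed a class of their own, so the other classes hold distal regions only. Distal introns and distal intergenic sequence held a larger share of the FGF regions than of all regions, with no test. Distal introns held 92 of 199 (46.2%), against 32.4% of all candidate regions, and distal intergenic sequence held 62 (31.2%), against 19.6%. Within 1 kb of a TSS lay 22 (11.1%), against 27.6%, and in distal coding exons 18 (9.05%), against 17.5%. In all, 129 of the 199 lay in the body of the gene to which they were given.

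Between the replicates, the ths peak was the only one of the 3 with its summit in a peak of both, against 42.6% of all peaks. The bnl promoter peak was in that of replicate 1 alone and the bnl intron peak in neither. All 3 matched a candidate region in each replicate. Of the 199 candidate regions, 96 (48.2%) matched a region in both replicates, against 51.2% of all candidate regions. Across those 96 the Spearman rho of the replicate signals was 0.352, against 0.366 over all 71395 matched regions. Without the 3 peaks it was 0.287, and no value over all regions without peaks is given here. Neighbouring joint regions could match the same replicate region, so some pairs of values are repeated. The rho values are correlations across regions of the same 2 libraries and are given as a description.

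**Figure D3:**
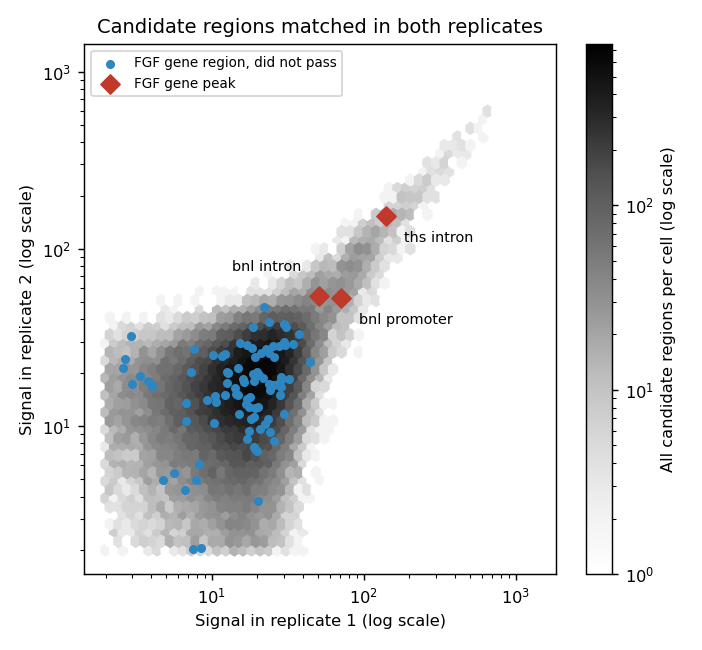
Signal in replicate 2 against signal in replicate 1 (both log scales) for candidate regions matched in both, with all regions as grey cells by their number and those of the FGF genes as points. The ths intron peak at 140 and 153 lies on the narrow band of strong regions, the bnl peaks lie where that band begins, and the other FGF regions lie in the broad cloud of weak ones.

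Motifs were searched on both strands within 100 bp of each summit, and a match describes the letters only. The homeodomain core TAATTA was in 0 of the 3 peaks, against 13.5% of all peaks and 8.62% of regions that did not pass. Over the 199 candidate regions it was in 20 (10.1%). The paired domain core GTCACGC was in 0 of 3, against 0.869% and 1.25%. The homeodomain dimer sites were also in 0 of 3. They were in 1.91% (2 bases between the cores) and 2.22% (3 bases) of all peaks. GAGAGAG, a sequence bound by the GAGA factor, was in the bnl promoter peak alone, against 4.28% of all peaks and 2.61% of regions that did not pass. It matched there at 4 places, of which 3 overlap one another and span the summit. ACAGTG, the 6-mer that led in earlier results of these data, was 36 bp from the ths summit and in no bnl peak at this distance, against 19.9% and 8.24%. TACGTG, the site of Trachealess with Tango, which drive tracheal genes, was in 0 of 3 peaks, against 4.34% and 4.86%, and in 12 of the 199 candidate regions (6.03%). The DREF element TATCGATA and the Zelda site CAGGTAG were in none of the 3 peaks at this distance, against 2.57% and 1.18% of all peaks. The E-boxes CACATG and CAGCTG and the ETS core CCGGAA were also in none, against 8.45%, 10.8% and 5.18%. With such shares, 0 of 3 peaks does not set the FGF peaks apart. The 3 peaks differed in base composition, with 59.2% G and C around the bnl promoter summit, 28.4% around the bnl intron summit and 39.8% around the ths summit, against a median of 37.8% over all peaks. Of the bases around the bnl intron summit, 28.9% are soft-masked as repeats or low complexity in the RefSeq sequence, against a median of 16.9% over all peaks, and none are around the other 2 summits. Any effect of that on the signal was not tested.

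Genes that act below the receptors were counted in the same way. Of 16 such signal transduction genes, 5 had a promoter peak, against 13.8% of all genes, and 6 had a distal one, against 5.74%. In the joint list, 17 of their 298 distal candidate regions passed (5.70%, exact interval 3.36 to 8.98), against 1.16% of all. Of these peaks, 6 lay at Raf, 4 at aop and 3 at sty, and peaks of 1 gene share their surroundings. The interval covers counting error only. In the replicate 2 list 3 of the 16 had a promoter peak. Raf, the kinase below Ras, had a promoter peak of 119 and 6 distal peaks with signals of 101 to 498. The kinase gene Src64B had a promoter peak of 297, and RasGAP1, which encodes a negative regulator of Ras, one of 277. Sprouty (sty), an inhibitor of receptor tyrosine kinase signalling, had 3 distal peaks of up to 252. The other 10 genes of the list had no peak.

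Genes of heparan sulfate synthesis and of its core proteins, which FGF ligands need to bind their receptors, had promoter peaks in 4 of 12, against 13.8% of all genes, and a distal peak in 1, against 5.74%. The strongest were at Hs2st (155) and Hs6st (a distal peak of 109), which encode heparan sulfate sulfotransferases, at the polymerase gene sotv (133), and at sgl (119), whose enzyme makes a sugar precursor. Of their 322 distal candidate regions, 2 passed (0.621%), against 1.16% of all. The distal peaks of the list lay at 2 genes in replicate 1, and in replicate 2 there was 1 such peak. Of 15 tracheal genes, 5 had a promoter peak, against 13.8% of all genes, and 3 a distal one, against 5.74%. The promoter count was 2 in the conservative list, 2 in replicate 1 and 1 in replicate 2. Of their 521 distal candidate regions 5 passed (0.960%), against 1.16%, while the conservative list held 8 distal peaks. The strongest were distal peaks of vvl (239, 26251 bp from its TSS), sima (206) and rib (98.4), genes of transcription factors, and the promoter peak of the prolyl hydroxylase gene Hph (92.8). The tracheal selector gene trh, which drives btl, had a promoter peak of 75.9, below the median of all peaks. It was named after its value was seen, and other genes of the list had stronger peaks.

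Of 16 early mesoderm and heart genes, 1 had a promoter peak, against 13.8% of all genes, and the conservative list had 2. In the joint list it was that of tin (291), which encodes the homeodomain protein needed for the heart. Distal peaks lay at 6 of them, against 5.74% of all genes, and at 4 in replicate 2. Of their 367 distal candidate regions 16 passed (4.36%), against 1.16%, but the conservative list held 10 distal peaks, the replicate 1 list 9 and the replicate 2 list 6. The strongest were at zfh1 (323), Doc2 (211) and Mef2, a regulator of muscle genes, with 7 distal peaks of 22.8 to 197. Among 15 EGF receptor pathway genes, 7 had a promoter peak, against 13.8% of all genes, and 6 a distal one, against 5.74%. Of their 454 distal candidate regions 14 passed (3.08%), against 1.16%. Their strongest were at the ligand gene spi (302), at sty (252), at the inhibitor gene aos (234) and at ru (233), whose product processes the ligand. The genes sty, pnt and aop stand in both the EGF receptor and the signal transduction lists, so those counts overlap. They had 3, 2 and 4 distal peaks, a large part of the 14 and the 17 distal peaks of these lists. All 5 lists were drawn up with results of these data known, and differences between them were not tested. Shares over all genes for the conservative list and for replicate distal peaks are not given here. For replicate promoter peaks they were 9.89% and 9.46%.

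**Figure D4:**
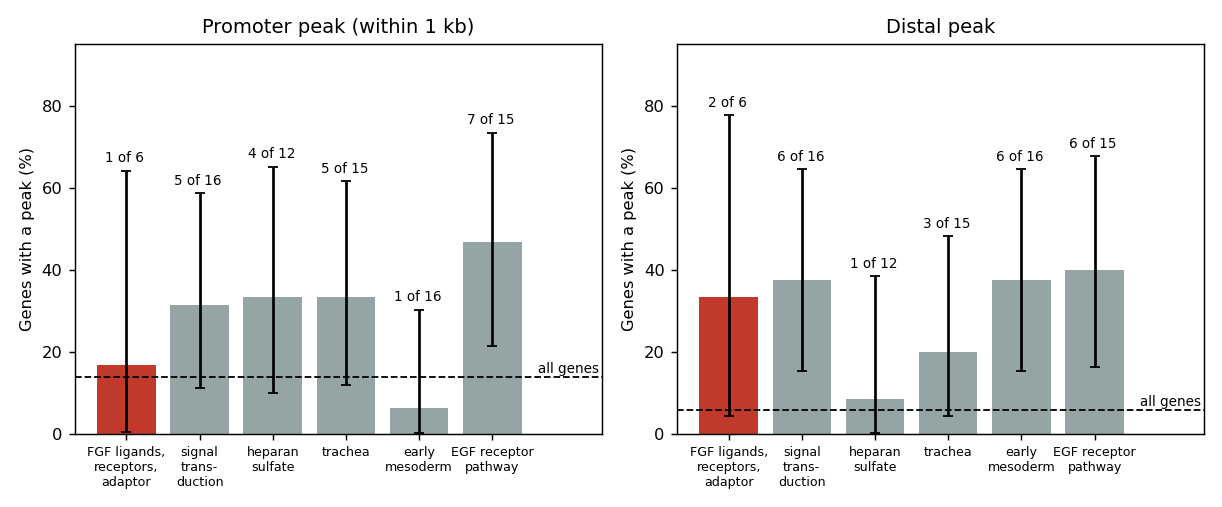
Share of genes with a promoter peak (left) and with a distal peak (right) in the FGF genes and the 5 other lists, as bars from 0 with exact Clopper-Pearson 95% intervals and counts above them. Dashed lines show all protein-coding genes (13.8% and 5.74%); the interval of the 6 FGF genes runs from 0.421% to 64.1% for promoters and from 4.33% to 77.7% for distal peaks.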

How the data were processed

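Peak lists of ChIP-seq from 2 biological replicates of whole embryos of 0 to 18 h were used, on assembly dm6 per the labels, with chromatin sheared to 200 to 800 bp. The authors deposited, for each region, a signal (the peak caller's value, scale not stated), a score capped at 1000, and in the ranked lists the −log10 of the global IDR. No deposited list of passing regions held a score under 830. Aligner, peak caller and use of a control: not given in the sources used here. For the joint ranked lists, 4 columns of per-replicate values were not used.

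Annotation was Ensembl release 115 for Release 6, and bases were read from the RefSeq copy after its arm lengths had been compared with it. Python 3.11.15 with pandas 2.3.3, numpy 2.4.6, scipy 1.17.1 and matplotlib 3.10.9 was used. A joint region matched a replicate region when its summit lay inside it. Motifs were counted within 100 bp of summits. Depth is unknown from peak lists, so precision is given only as exact binomial intervals of counts. On simulated data, the distance to the nearest protein-coding TSS was tested for summits near a TSS, and the motif search for planted motifs. The rule that gives distal regions to genes and the matching of replicate regions were not tested in this way.

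The members, lists and motifs were chosen with earlier results of these data known. All 6 genes are described, each with its peaks or its strongest candidate region, and up to 4 genes per other list by strongest peak, with trh added after its value was seen. The symbol phl was matched as Raf, Gap1 and Ext2 were duplicates of RasGAP1 and sotv, and dys was not matched. Alternatives covered the conservative list, each replicate alone, stricter IDR and signal, the promoter window, the nearest gene, the overlap rule and the motif window. No test between groups was made.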

Additional observations from a re-analysis of the deposited data

How the results depend on the processing

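Of 62 alternative values, 13 were counts that moved by over 1.5 times, and the cause was not tested. The other 49 were counts within 1.5 times of the reported one or shares inside its binomial interval of 0.137% to 4.02%, which is wide enough to hold about a halving of the share. Leaving out 1 replicate (using the other's own list) gave 0 to 1 FGF genes with a promoter peak, 1 distal peak with either list and 1 to 2 genes with any peak. The share of distal candidate regions that passed was then 0.641% to 0.680%. The bnl promoter peak was lost without replicate 1, and the bnl intron peak without either replicate. At an IDR of at most 0.001, 0 genes had a promoter peak, 1 distal peak was left and 1 gene had any peak, all at ths. With signal at or above the median of the list, 1 distal peak was left. A promoter window of 2 kb gave 2 promoter genes and 1 distal peak, because the ths summit then counts as a promoter peak. With motifs searched within 200 bp, TAATTA was in 1 peak (ths), CAGCTG in 1 (bnl promoter) and ACAGTG in 2. The share of distal regions that passed ran from 0.565% to 1.72% over all alternatives. The highest came from giving summits to the gene whose body holds them, an alternative chosen after seeing the data, which gave 3 distal peaks. The ths peak was the 1 shared by both replicate lists under each overlap rule. No paired analysis was possible because there is 1 group and no test. With 3 peaks, a single peak moves every count, and the unknown depth limits what a region that did not pass can show.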

Other observations

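Peaks of other genes stood at distances that the rules did not count for the FGF genes. Upstream of bnl, the nearest peak outside the gene (144) was 24652 bp from its TSS, at the promoter of Mrm2, and it passed in replicate 1 alone. Around btl, peaks lay at the promoter of CG6833 (160, 24628 bp away, passing in both replicates) and near Sox21a (97.5, in neither replicate list). Upstream of stumps, the promoter of Pde6 had a peak of 147 at 18639 bp that passed in both replicates. Within 30 kb of htl and of pyr there was no peak of any gene in the joint list.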
